A study of Mus musculus with 12 samples.

Results

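Type I interferon response genes were followed in whole-lung RNA of mice given lipopolysaccharide (LPS). The 38 genes were taken by symbol as genes known to be switched on by type I interferon, with earlier results of these data known, and all 38 had a row among the 55414 genes of the expression table. The lungs of 12 mice were taken on day 4 of LPS exposure. Among the mice, 6 were IL-10 B-KO (KO below), bred from Il10 flox/flox and Mb1-Cre mice so that Il10 is deleted in B cells, and 6 were IL-10 B-WT (WT below), all on a C57BL/6J background. Mb1 is another name for Cd79a, a gene active in the B lineage. Whether the IL-10 B-WT mice carried Cre, and the age of the mice, are not given in the sources used here. No lungs without LPS were analysed here, so that the values compare the genotypes after LPS and do not show the response to LPS. Levels are in TPM, in which each gene's reads are divided by its length and each library is scaled to a common total. The sequencing depth behind a TPM value is unknown.

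Type I interferons are cytokines, chiefly interferon beta and the interferon alpha family, that cells release when sensors of microbial products are triggered. In the LPS pathway this happens through Tlr4 and the adaptor Ticam1, which activate Irf3. Secreted interferon binds the receptor Ifnar1 and Ifnar2, and a transcription factor complex that includes Stat2 and Irf9 then switches on interferon-stimulated genes, whose products block virus replication, sense nucleic acids and feed back on signaling. Interferon gamma, made mainly by T cells and NK cells, acts through another receptor, and it raises many of the same genes.

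Before the interferon genes, the targeted gene and the libraries that stood apart are given. Il10 (ENSMUSG00000016529, chr1:131019845-131024974, plus strand) had TPM of 0.42, 0.88, 0.62, 0.05, 0 and 0.16 in WT replicates 1 to 6, and of 0.49, 0, 0.3, 0.15, 0.58 and 0.17 in KO replicates 1 to 6. Low values thus overlapped between the genotypes (p = 0.745 in an exact permutation test, n = 6), and whole-lung Il10 did not tell them apart. Cd79a (ENSMUSG00000003379, chr7:24897381-24902197, plus strand) was at 15.3, 259, 24.8, 22.9, 23.4 and 18.4 TPM in WT replicates 1 to 6. It was at 0, 4.35, 0, 0.05, 0 and 5.73 TPM in KO replicates 1 to 6. All KO lungs were below all WT lungs for this gene, and replicates 2 and 6 were the KO lungs with more than traces of it. Immunoglobulin genes took 0.248%, 15.4%, 2.19%, 1.78%, 1.26% and 1.02% of the TPM in WT replicates 1 to 6, and 0.00706%, 0.0647%, 0.00199%, 0.00377%, 0.00223% and 0.0533% in KO replicates 1 to 6. The number of Cre alleles in each mouse, and so of altered Cd79a alleles, is not given in the sources used here. All KO lungs were thus below all WT lungs in Cd79a and immunoglobulin, replicates 2 and 6 less far than the others, and a difference between the genotypes cannot be assigned to Il10 alone.

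Of 5 B cell markers (Cd79a, Cd79b, Ms4a1, Pax5 and Cd22), all 5 had a lower mean in KO lungs, with Cd79b the most abundant. Their summed level was 62.05, 715.4, 100.7, 65.63, 59.62 and 63.75 TPM in WT replicates 1 to 6. It was 10.22, 61.54, 8.01, 5.21, 7.26 and 40.71 TPM in KO replicates 1 to 6. In bulk tissue, fewer cells of a type and less RNA per cell cannot be told apart. The part of B cell content in the values of the interferon genes was not tested beyond leaving out KO replicates 2 and 6. Within WT, replicate 1 stood apart from the others in the interferon genes, and results are given with and without it.

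The module level, which is the mean log2(TPM + 1) over the 38 genes in a lung, was 6.53, 4.16, 5.27, 4.04, 3.82 and 4.54 in WT replicates 1 to 6. In KO replicates 1 to 6 it was 5.85, 4.63, 5.14, 5.35, 6.50 and 5.20. The lung with the highest level was thus a WT lung, replicate 1, followed closely by KO replicate 5, while the 4 lowest levels were those of WT replicates 2, 4, 5 and 6. The mean was 4.73 ± 1.02 in WT and 5.45 ± 0.65 in KO lungs (SD, n = 6 each), a difference of 0.72 that is smaller than the SD within WT. Without WT replicate 1 the WT mean was 4.37 ± 0.57 (SD, n = 5), the difference was 1.08, and 3 of the 6 KO lungs were above all 5 remaining WT lungs. Without KO replicate 5 the difference was 0.51. Without KO replicates 2 and 6, which held more B cell transcripts than the other KO lungs, it was 0.99. This choice of lungs was made after seeing the data. No test was made of the module level, since the genes were chosen with earlier results known.

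**Figure D1:**
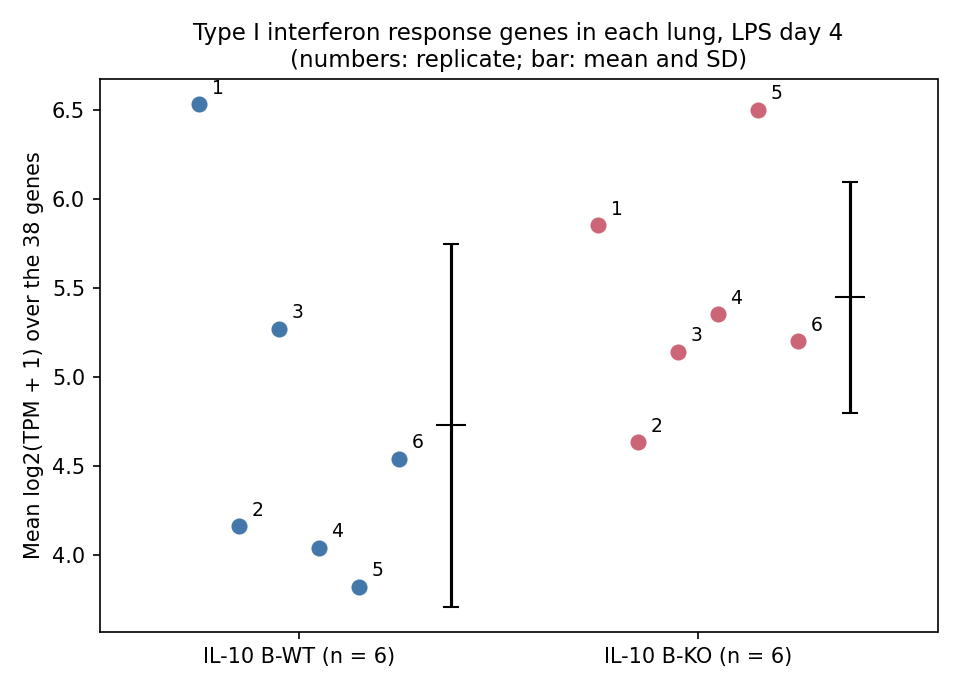
Mean log2(TPM + 1) over the 38 type I interferon response genes (vertical axis) in each lung on day 4 of LPS, 6 of IL-10 B-WT mice and 6 of IL-10 B-KO mice, numbered by replicate, with the mean and SD of each genotype. The genotypes overlap, with IL-10 B-WT replicate 1 (6.53) at the level of IL-10 B-KO replicate 5 (6.50).

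On the linear scale the spread between lungs was wider. The summed TPM of the 38 genes were 7101, 1758, 3712, 2127, 1749.5 and 2634 in WT replicates 1 to 6, and 5420.0, 2776, 3936, 3948, 8849 and 3383 in KO replicates 1 to 6. These sums are 0.715% of all TPM in WT replicate 1, 0.891% in KO replicate 5, and 0.176% in WT replicate 5, the lung with the smallest share. The genes moved together from lung to lung. WT replicate 1 held the highest WT value for 37 of the 38 genes, the exception being Ifi27l2a, and KO replicate 5 the highest KO value for 34 of the 38. At the other end, WT replicate 5 held the lowest WT value for 25 genes and KO replicate 2 the lowest KO value for 27. For single genes, WT replicate 1 was between 1.21 times (Ifi27l2a) and 28.1 times (Zbp1) the median of the other 5 WT lungs, with a median over the genes of 4.39 times.

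**Figure D2:**
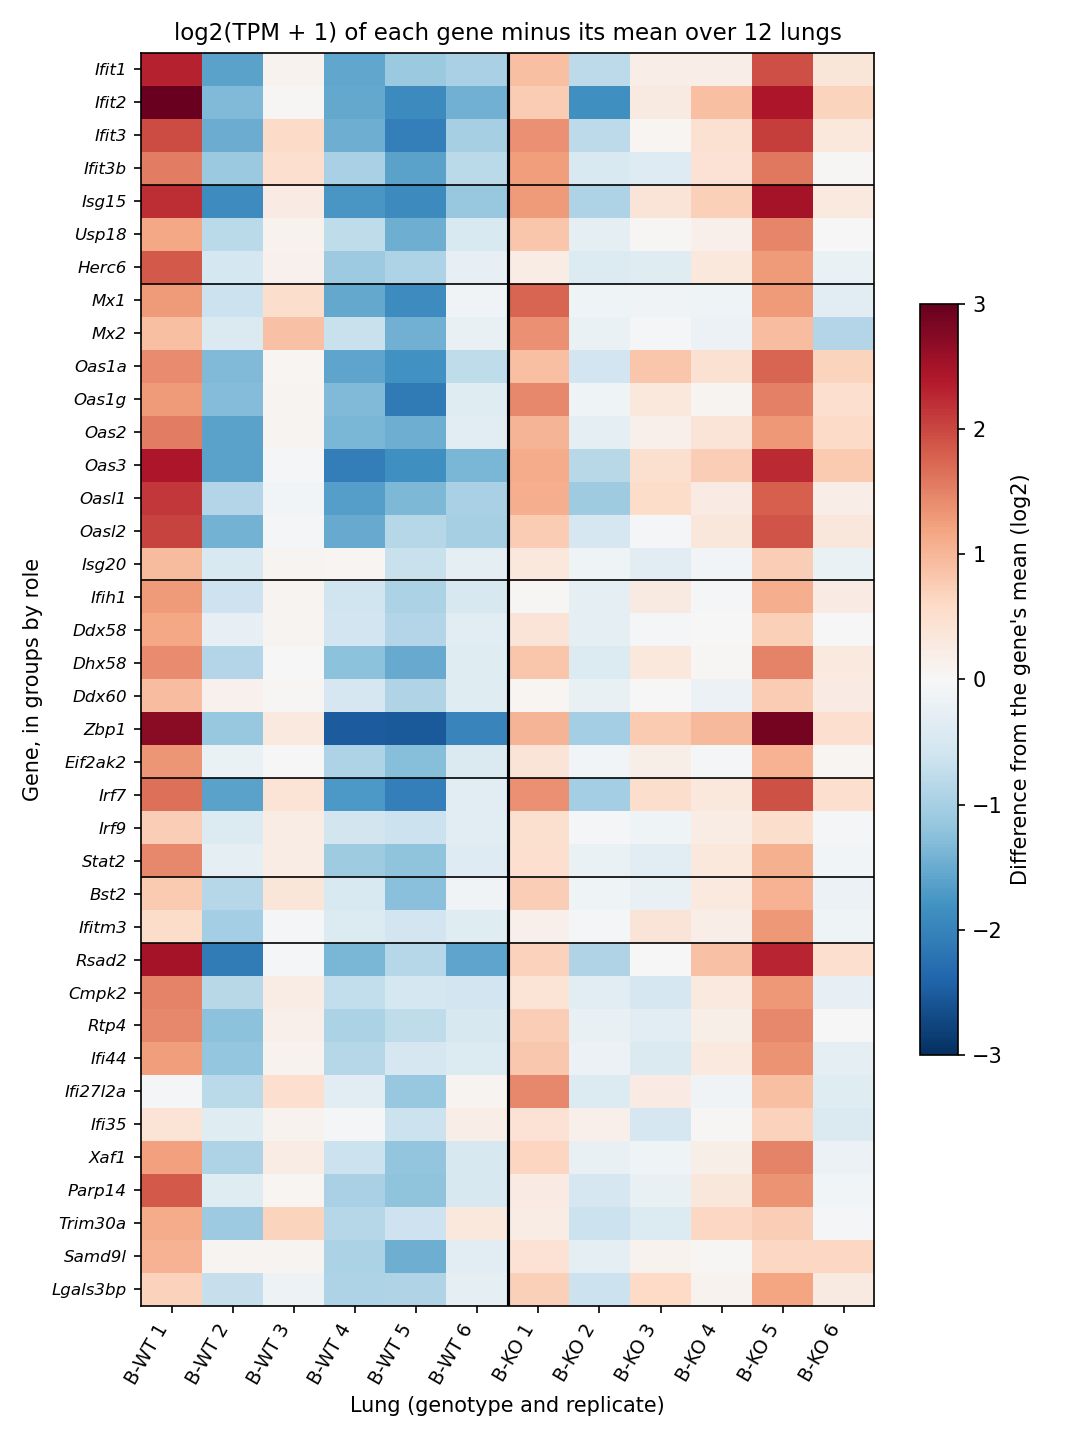
Each of the 38 genes (rows, in groups by role) in each of the 12 lungs (columns), as log2(TPM + 1) minus the mean of that gene over all 12 lungs, with red above and blue below the mean. For 35 of the 38 genes the highest of the 12 values is in IL-10 B-WT replicate 1 or else in replicate 5 of IL-10 B-KO.

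Mitochondrially encoded transcripts took shares that differed among the same lungs. They made up 5.66%, 6.09%, 11.1%, 11%, 30.5% and 13.4% of the TPM in WT replicates 1 to 6, and 7.88%, 13.8%, 5.07%, 15.8%, 4.63% and 14.1% in KO replicates 1 to 6. The lung with the largest share, WT replicate 5, had the lowest module level, and the pair of lungs with the highest module levels were among the lungs with small shares. With the TPM rescaled without these transcripts, an alternative added after seeing the data, the difference in module level was 0.68.

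The genotypes were compared gene by gene with limma on log2(TPM + 1), over the 15148 genes with at least 1 TPM in at least 6 of the 12 libraries, and p-values were adjusted by the Benjamini-Hochberg method over all of them. A log2 fold change on this scale understates the change of genes with low TPM. Called genes are those with an adjusted p no larger than 0.05 whose log2 fold change was 1 or more in either direction. All 38 genes were tested, and all 38 had a higher mean log2(TPM + 1) in KO lungs, against 36 of 38 with quantile normalization, where Isg20 and Ifi35 were slightly lower (log2 fold changes of -0.05 and -0.04). Array weights also gave 36 of 38, with Mx2 and Ifi35 not higher. Of single lungs left out, WT replicate 2 or 4 left Trim30a not higher, WT replicate 5 Isg20, and KO replicate 5 both Isg20 and Ifi35. Of all genes tested, 63.2% were higher in KO lungs. The median log2 fold change was 0.61 over the 38 genes and 0.10 over all genes tested. When each library was centred on its median, which moved the median of all genes to -0.01, the median over the 38 genes was 0.50.

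None of the 38 genes was called (limma, smallest adjusted p = 0.341), where 4 of the 15148 genes tested (0.0264%) were called as higher in KO lungs. With unadjusted p-values up to 0.05, 4 of the 38 genes (10.5%) were higher in KO lungs, namely Oas1a, Oas1g, Oas2 and Lgals3bp, beside 1034 (6.83%) of all genes tested, a share near that of the list. Single libraries moved this count. Without WT replicates 1, 2, 4, 5 or 6 it was 30, 1, 0, 0 and 2, with a single lung left out each time, beside 17.9%, 5.91%, 4.02%, 3.19% and 4.36% of all genes tested. Without KO replicates 1, 2, 3 or 5 it was 1, 11, 2 and 0, beside 5.04%, 11.2%, 3.25% and 3.4% of all genes. For 0 of the 38 genes did the genotypes not overlap, beside 154 of all genes tested (1.02%). In 24 of the 38 genes, all 6 KO lungs were above the median of the WT lungs, beside 1790 of all genes tested (11.8%).

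WT replicate 1 weighed on all of these values. Without it, 5 of the 38 genes (13.2%) were called by limma, with 344 (2.30%) of the 14943 genes then tested called as higher. These 5 genes were Oas1a, Oas1g, Oas2, Oas3 and Zbp1, with adjusted p-values from 0.0361 to 0.0465. At an unadjusted p of at most 0.05 the count was 30 of 38 (78.9%), beside 2678 (17.9%) of all genes. The median log2 fold change over the 38 genes became 0.92, and 0.16 over all genes. Without KO replicate 5, in contrast, the median was 0.45, 36 of the 38 genes were higher in KO lungs, and for 0 the unadjusted p was 0.05 or less. The smallest adjusted p of the 38 genes in limma was then 0.648. Nothing in the labels sets either lung apart, and both were kept. The Cd79a and immunoglobulin levels of WT replicate 1 (15.3 TPM and 0.248%) were above those of every KO lung, as its label has it. Whether it came from a mouse with an infection was not tested.

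**Figure D3:**
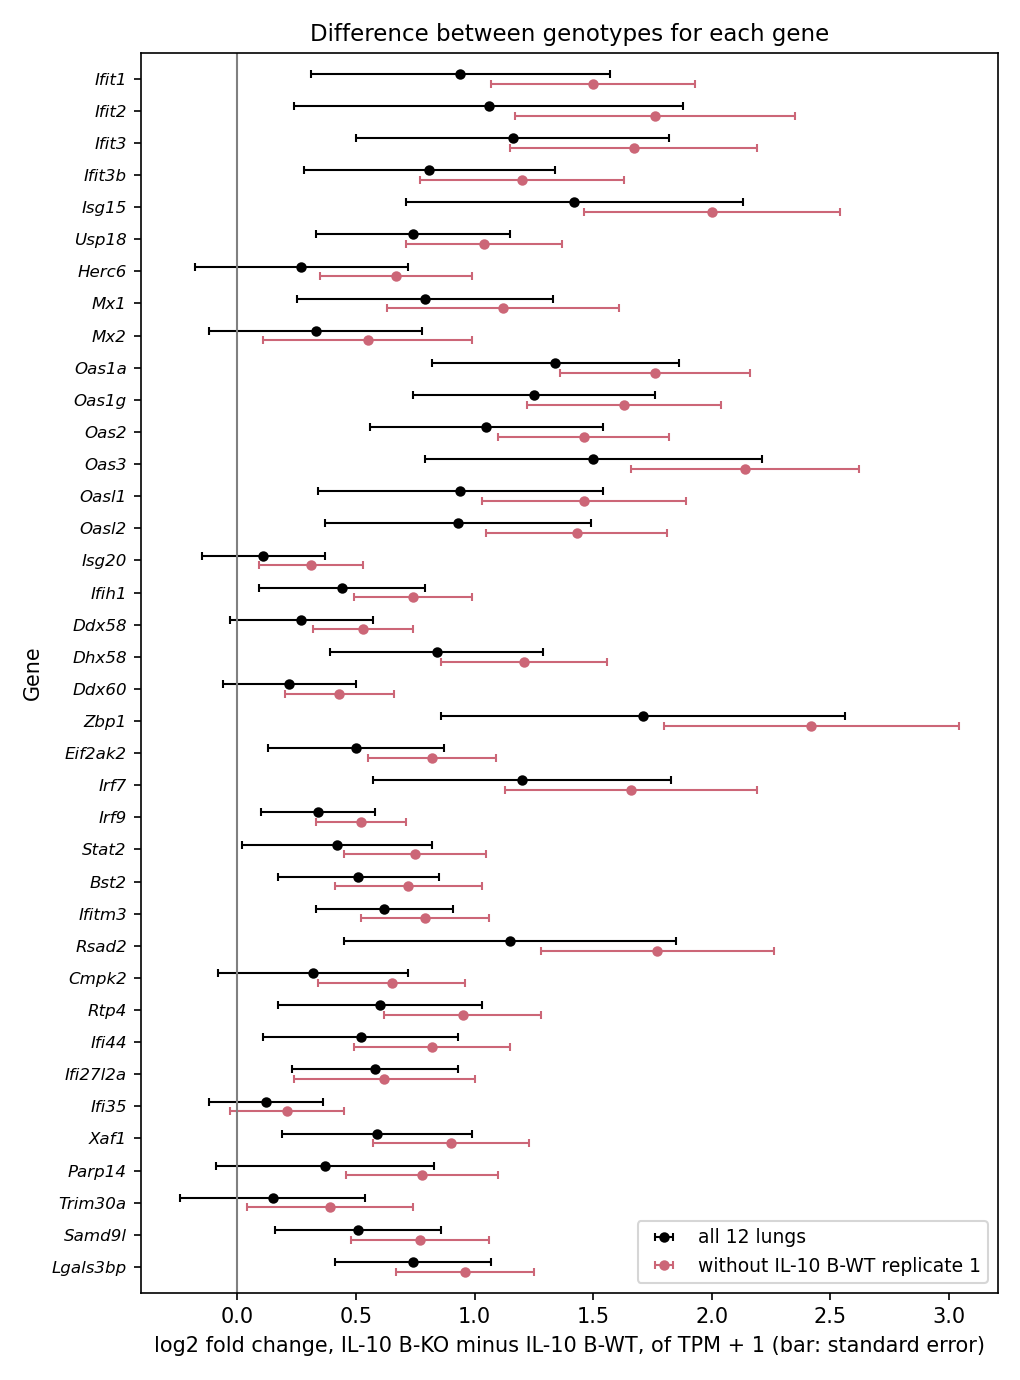
Log2 fold change of TPM + 1, IL-10 B-KO minus IL-10 B-WT (horizontal axis), with its standard error, for each of the 38 genes over all 12 lungs (black) and without IL-10 B-WT replicate 1 (red). The values over all 12 lungs run from 0.11 (Isg20, -0.05 with quantile normalization) to 1.71 (Zbp1). Each is larger without IL-10 B-WT replicate 1, which follows from that lung holding the highest IL-10 B-WT value for 37 of the 38 genes.

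Single genes are described below by role, each with its lowest, median and highest TPM in a genotype, and are compared by limma and by permuting the lungs exactly (two-sided, on mean log2(TPM + 1)). With 6 lungs against 6 the smallest p this test can give is 0.00216.

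The IFIT proteins bind foreign RNA and keep it from being translated. The family had 4 genes in the list, with log2 fold changes between 0.81 and 1.16. Ifit3 (ENSMUSG00000074896, chr19:34583531-34588731, plus strand), the most abundant of them, had lowest, median and highest levels of 20.1, 36.9 and 343 TPM in WT lungs and 49.6, 114 and 371 TPM in KO lungs. The genotypes overlapped, since WT replicate 1 was close to the highest KO lung and WT replicate 3 was above 4 of the 6 KO lungs, although all 6 were above the WT median. Between the genotypes the log2 fold change was 1.16 (SE 0.66; p = 0.468 adjusted in limma and 0.154 in the exact permutation test). Ifit3b (ENSMUSG00000062488, chr19:34607970-34613401, plus strand), a neighboring copy of Ifit3, was at 4.6, 8.29 and 48.9 TPM and 11.4, 19.2 and 50.2 TPM in the same order, with a log2 fold change of 0.81 (standard error 0.53). Of all runs of 50 bases in the longest Ifit3 transcript, 51.2% occur unchanged in a transcript of Ifit3b, so that the division of reads between the copies is uncertain. Ifit1 and Ifit2, which lie in the same cluster on chromosome 19, had log2 fold changes of 0.94 and 1.06. Ifit2 went from 3.14 to 119 TPM (median 4.93) among WT lungs and from 3.3 to 82.1 TPM (median 24.3) among KO lungs.

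Isg15, a ubiquitin-like protein that is attached to other proteins or secreted, stands with Usp18, the protease that removes it and also restrains the interferon receptor, and with Herc6, its ligase in mice. Isg15 (ENSMUSG00000035692, chr4:156199424-156200818, minus strand) had lowest, median and highest levels of 23.3, 33.4 and 423 TPM in WT lungs and 47.4, 135 and 513 TPM in KO lungs. A single WT lung, replicate 1, lay far above the other 5, whose highest value was 107 TPM, and 5 of the 6 KO lungs were above those 5. This gave a log2 fold change of 1.42 (SE 0.71; p = 0.433 adjusted in limma and 0.108 in the exact permutation test), and 2 (adjusted p = 0.0514 in limma) without replicate 1. Without KO replicate 5, the highest KO lung, it was 1.06. Usp18 and Herc6 had log2 fold changes of 0.74 and 0.27, and their highest values in WT lungs were again those of replicate 1. Without WT replicate 1 the log2 fold changes were 1.04 and 0.67.

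The next group holds proteins that act on viral particles and nucleic acids, 9 genes with log2 fold changes from 0.11 to 1.5 and a median of 0.94, in which Isg20 was at -0.05 with quantile normalization. The OAS enzymes make 2′-5′ linked oligoadenylates upon binding double-stranded RNA, and these activate RNase L, which cuts RNA. Oas1a (ENSMUSG00000052776, chr5:120896256-120907521, minus strand) had lowest, median and highest levels of 5.85, 10.9 and 64.04 TPM in WT lungs and 15.2, 39.8 and 79.8 TPM in KO lungs. Apart from replicate 1 at 64.04 TPM, no WT lung exceeded 24.1 TPM, and 5 of the 6 KO lungs were above that level. The genotypes differed by a log2 fold change of 1.34 (SE 0.52; p = 0.341 adjusted in limma and 0.0498 in the exact permutation test), and the exact permutation p of 0.0498 was the smallest among the 38 genes. Without replicate 1 of WT it was 1.76 (SE 0.40; p = 0.037 adjusted in limma and 0.00866 in the exact permutation test). Without replicate 5 of KO, the highest KO lung, it was 1.12.

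Oas1g (ENSMUSG00000066861, chr5:120876142-120887613, minus strand), a near copy of Oas1a in the same cluster on chromosome 5, was at 2.24, 7.32 and 33.5 TPM in WT lungs and 11.9, 17.9 and 39.5 TPM in KO lungs. Here the log2 fold change was 1.25 (SE 0.51; p = 0.353 adjusted in limma and 0.0563 in the exact permutation test). Since 57.6% of the 50-base runs of the longest Oas1a transcript occur in a transcript of Oas1g, the pair are not independent measurements. Oas2 (ENSMUSG00000032690, chr5:120730333-120749853, minus strand) was at 5.01, 9.81 and 51.4 TPM and 14.1, 24.4 and 43.4 TPM, with a log2 fold change of 1.05 (SE 0.49; p = 0.397 adjusted in limma and 0.0866 in the exact permutation test). Oas3 (ENSMUSG00000032661, chr5:120753098-120777661, minus strand), at low levels in WT lungs (1.02, 2.04 and 44.97 TPM) and higher ones in KO lungs (3.81, 13.3 and 38.8 TPM), had the largest log2 fold change of the group, 1.5 (SE 0.71; p = 0.405 adjusted in limma and 0.0952 in the exact permutation test). For both genes the highest of all 12 values was in WT replicate 1, and without it the log2 fold changes were 1.46 and 2.14 (limma adjusted p = 0.0412 and 0.0361). Without KO replicate 5 they were 0.89 and 1.21.

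Oasl2, an OAS-like protein with ubiquitin-like domains, was the most abundant gene of this group. Oasl2 (ENSMUSG00000029561, chr5:114896936-114912234, plus strand) was at 34.7, 52.3 and 416 TPM in WT lungs and 70.6, 128 and 375 TPM in KO lungs, with a log2 fold change of 0.93 (SE 0.56; p = 0.489 adjusted in limma and 0.167 in the exact permutation test). The related Oasl1, known in mice to limit translation of Irf7, had a log2 fold change of 0.94. Mx1 and Mx2 belong to the Mx family, whose GTPases are known to trap viral ribonucleoproteins. Mx2 is annotated as a polymorphic pseudogene, and RNA levels do not show whether either gene makes a working protein in these mice. Mx1 and Mx2 differed from most of the list in that KO replicate 1, not 5, held the highest values, 29.5 TPM for Mx1 and 16.4 TPM for Mx2. The log2 fold changes were 0.79 and 0.33, and 1.12 and 0.55 without WT replicate 1. Isg20, an exonuclease for RNA, ranged from 40.96 to 127 TPM (median 60.9) in WT and from 51.6 to 111 TPM (median 61.2) in KO lungs, so that its medians were nearly equal.

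Sensors of nucleic acids made up 6 genes. Zbp1, which binds left-handed nucleic acid and starts necroptosis, was the most abundant of them. On log2(TPM + 1) it had the largest log2 fold change of the whole list. With 0.1 added to the TPM in place of 1, that of Oas3 was larger (1.85, against 1.77 for Zbp1). Zbp1 (ENSMUSG00000027514, chr2:173206612-173218923, minus strand) had lowest, median and highest levels of 8.16, 17.4 and 340.31 TPM in WT lungs and 24.8, 94.9 and 379 TPM in KO lungs. The genotypes overlapped, with replicate 1 of WT at 340.31 TPM, while the other 5 WT lungs did not exceed 62.8 TPM, a level that 5 of the 6 KO lungs passed. Between the genotypes the log2 fold change was 1.71 (SE 0.85; p = 0.427 adjusted in limma and 0.117 in the exact permutation test) and 2.42 without that lung (SE 0.62; p = 0.0465 adjusted in limma and 0.0152 in the exact permutation test). Without KO replicate 5, the highest KO lung, it was 1.3. The cytosolic RNA sensors Ddx58 (RIG-I) and Ifih1 (MDA5) had log2 fold changes of 0.27 and 0.44, and of 0.53 and 0.74 without WT replicate 1. Ddx60, a helicase at 0.96 to 5.96 TPM over all lungs, was at 0.22, and at 0.43 without it. Dhx58, which encodes LGP2, a regulator of these sensors, was at 0.84. Eif2ak2, the kinase PKR that stops translation upon binding double-stranded RNA, was at 0.5, and at 0.82 without WT replicate 1.

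The transcription factors in the list carry and amplify the signal. Irf7, which drives transcription of the interferon alpha genes, was the most abundant and had the largest difference. Irf7 (ENSMUSG00000025498, chr7:141262706-141266481, minus strand) had lowest, median and highest levels of 24.3, 57.5 and 328 TPM in WT lungs and 50.3, 148 and 392 TPM in KO lungs. Both ranges were wide, with WT replicate 1 and KO replicate 5 at the top, and 5 of the 6 KO lungs were above the WT median. This gave a log2 fold change of 1.2 (SE 0.63; p = 0.446 adjusted in limma and 0.128 in the exact permutation test). Irf9 and Stat2, which are parts of the complex that binds interferon-stimulated genes, had log2 fold changes of 0.34 and 0.42 (standard errors 0.24 and 0.40). Without WT replicate 1 they were 0.52 and 0.75.

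Membrane proteins that hold back viruses include the gene with the highest mean TPM of the list. This gene, Ifitm3, which blocks fusion of enveloped viruses in endosomes, is also made by many cells without interferon. Ifitm3 (ENSMUSG00000025492, chr7:141009586-141010770, minus strand) had lowest, median and highest levels of 569, 882 and 1691 TPM in WT lungs and 1051, 1306 and 2838 TPM in KO lungs. KO replicate 5 lay far above the other 5 KO lungs, of which 4 were above all WT lungs except replicate 1. The genotypes differed by a log2 fold change of 0.62 (SE 0.29; p = 0.401 adjusted in limma and 0.0628 in the exact permutation test). Bst2, or tetherin, which holds budding virus at the cell surface, ranged from 159 to 656 TPM (median 312) in WT and from 323 to 779 TPM (median 403) in KO lungs, a log2 fold change of 0.51.

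The remaining 11 genes are effectors and modifiers of several kinds, with log2 fold changes from 0.12 (Ifi35, -0.04 with quantile normalization) to 1.15 (Rsad2) and a median of 0.52. Rsad2 encodes viperin, which makes a chain-terminating nucleotide, and Cmpk2, its neighbor on chromosome 12, encodes a mitochondrial nucleotide kinase. Rsad2 (ENSMUSG00000020641, chr12:26442746-26456452, minus strand) was at 1.68, 4.36 and 63.3 TPM in WT lungs and 5.15, 16.3 and 54.7 TPM in KO lungs, and the highest value of all lungs was that of WT replicate 1. The log2 fold change was 1.15 for Rsad2 (SE 0.70; p = 0.491 adjusted in limma and 0.177 in the exact permutation test) and 0.32 for Cmpk2. Without WT replicate 1 the values were 1.77 and 0.65. Lgals3bp, a secreted galectin-binding protein, was the most abundant of the 11. Lgals3bp (ENSMUSG00000033880, chr11:118392751-118402092, minus strand) was at 188, 258 and 581 TPM in WT lungs and 230.17, 486 and 809 TPM in KO lungs. All KO lungs but replicate 2 were above the WT lungs other than replicate 1, with a log2 fold change of 0.74 (SE 0.33; p = 0.379 adjusted in limma and 0.0671 in the exact permutation test).

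Of the others in this group, Rtp4, Xaf1, Ifi27l2a, Ifi44, Samd9l and Parp14 had log2 fold changes of 0.6, 0.59, 0.58, 0.52, 0.51 and 0.37. Without WT replicate 1 these were 0.95, 0.9, 0.62, 0.82, 0.77 and 0.78. Trim30a, a regulator of Toll-like receptor signaling, was at 0.15 (0.39 without that lung), and it was among the genes with close medians, 34.2 and 38.6 TPM. Ifi27l2a was the gene least tied to WT replicate 1. Its highest value, 701 TPM, was in KO replicate 1, and the highest WT value, 362 TPM, was in replicate 3.

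The ligands themselves were nearly absent from whole-lung RNA on day 4. Of 21 interferon genes, 15 were listed at 0 TPM in all 12 libraries, among them all 13 interferon alpha genes examined. Ifnb1 (ENSMUSG00000048806, chr4:88522025-88522774, minus strand), the gene of interferon beta, was at 0.11 TPM in WT replicate 1, at 0.12 TPM in KO replicate 5, and at 0 in the other 10 libraries. These are the same lungs that had the highest module levels, but the depth is unknown and values this low do not establish a link. Ifnab, Ifnk, Ifnl3 and Ifnz stayed at or below 0.42 TPM in all lungs. Ifng (ENSMUSG00000055170, chr10:118441046-118445892, plus strand), which encodes interferon gamma, was the ligand that passed the filter, with TPM of 9.92, 0.63, 2.85, 0.17, 0.66 and 1.24 in WT replicates 1 to 6, and of 2.72, 1.11, 0.46, 3.14, 10.3 and 0.43 in KO replicates 1 to 6. It too was highest in WT replicate 1 and KO replicate 5, and its log2 fold change between the genotypes was 0.23 (SE 0.59; p = 0.88 adjusted in limma and 0.734 in the exact permutation test). Leaving out WT replicate 1 gave 0.64 (SE 0.50; p = 0.435 adjusted in limma and 0.31 in the exact permutation test).

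Receptors and JAK-STAT genes were 13 in number, all tested. All 13 had positive log2 fold changes, though Ifngr2, Jak1 and Pias1 did not with quantile normalization, with a median of 0.31. By limma 0 were called or reached an unadjusted p of 0.05. Of all genes tested, 63.2% were higher, 0.0264% were called as higher and 6.83% were higher at that unadjusted p. Without WT replicate 1 the median was 0.48. Then 6 of the 13 reached an unadjusted p of 0.05 in limma (17.9% of all genes tested), with 0 called. Ifnar1 ranged from 21.7 to 71.03 TPM (median 38.7) in WT and from 34.5 to 57.5 TPM (median 48.2) in KO lungs, and Ifnar2 from 50.9 to 159.92 TPM (median 79.5) and from 76.2 to 139 TPM (median 117). Their log2 fold changes were 0.3 and 0.4 (limma adjusted p = 0.585 and 0.482). The smallest p-values in this list belonged to Socs3, a feedback inhibitor of cytokine receptors, to Il10rb, a chain shared by the receptors for IL-10 and interferon lambda, and to Ifnar2. Socs3 and Il10rb had log2 fold changes of 1.21 and 0.37 (limma adjusted p = 0.448 and 0.47).

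Of 18 genes tested that lead to interferon production, 16 were higher (Tlr3 not with quantile normalization) and 2 lower in KO lungs, beside 63.2% of all genes tested that were higher. The median log2 fold change was 0.50, with 0 called in limma. Unadjusted p-values in limma were 0.05 or less for 4 higher genes, beside 6.83% of all genes tested. Without WT replicate 1 there were 12 such genes (17.9% of all genes tested), and the median was 0.75. Cd14 and Tlr7 were then called, beside 2.30% of all genes tested called as higher. Cd14, a coreceptor for LPS, ranged from 9.24 to 231 TPM (median 32.8) in WT and from 38.7 to 317 TPM (median 120.5) in KO lungs, with a log2 fold change of 1.75 (SE 0.65; p = 0.328 adjusted in limma and 0.0455 in the exact permutation test). Tlr7, a sensor of single-stranded RNA in endosomes, was at 1.27 (SE 0.44; p = 0.303 adjusted in limma and 0.0346 in the exact permutation test). Ly96, the LPS-binding partner of Tlr4, was at 0.67 (SE 0.29; p = 0.379 adjusted in limma and 0.0606 in the exact permutation test). Irf3, which is activated by phosphorylation and not chiefly by transcription, ranged from 48.97 to 107 TPM (median 90.5) and from 64.2 to 91.8 TPM (median 71.7), with a log2 fold change of -0.12 (limma adjusted p = 0.791).

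A further list of 55 interferon-stimulated genes outside the 38 had 51 tested, of which 47 were higher and 4 lower, with a median log2 fold change of 0.41 and 0 called in limma. At an unadjusted p of at most 0.05, 4 were higher and 1 lower, beside 6.83% of all genes tested that were higher. Without WT replicate 1, 29 of 50 tested were higher at that threshold (17.9% of all genes), and the median was 0.62. The lower one was Ifi208, a member of the Ifi200 family of DNA-binding proteins, at 12.97, 16.5 and 18.6 TPM in WT and 3.71, 8.32 and 15.9 TPM in KO lungs (log2 fold change -0.9, SE 0.28; p = 0.244 adjusted in limma and 0.0108 in the exact permutation test). Ifitm6, a relative of Ifitm3 expressed in myeloid cells, had a log2 fold change of 1.27 (SE 0.42; p = 0.29 adjusted in limma and 0.0325 in the exact permutation test). Slfn1, a gene of the Schlafen family, was at 1.86 (SE 0.70; p = 0.328 adjusted in limma and 0.0476 in the exact permutation test). With quantile normalization Ifi203, Mndal, Ifitm1, Ifitm2, Ube2l6 and Pml were no longer higher. Without WT replicate 1, Ifi204, Slfn1, Slfn9 and Trim30b were called by limma, beside 2.30% of all genes tested called as higher. Most other interferon-stimulated genes tested were thus higher on average in KO lungs, like the 38 genes, beside 63.2% of all genes tested. Over all 12 lungs, their share that was higher at an unadjusted limma p of at most 0.05 was near that of all genes.

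GTPases and chemokines known for their response to interferon gamma, together with Ciita, Ido1 and Irf1, are compared next, 21 listed and 20 tested. All 20 had positive log2 fold changes (63.2% of all genes tested), with a median of 1.01. By limma 0 were called (0.0264% of all genes were called as higher) and 0 reached an unadjusted p of 0.05 (6.83% of all genes). Without WT replicate 1, 18 of the 20 had an unadjusted p of at most 0.05 in limma (17.9% of all genes tested), the median was 1.64, and 0 were called. Tgtp1, Gbp4 and Gbp2, the genes with the smallest p-values, had log2 fold changes of 1.7, 1.17 and 1.61 (limma adjusted p = 0.46, 0.473 and 0.486). Gbp2, which encodes a GTPase that attacks membranes around bacteria and parasites, was at 509, 15.8, 48.3, 12.4, 12.7 and 9.23 TPM in WT replicates 1 to 6. In KO replicates 1 to 6 it was at 55.95, 21.6, 66.5, 161, 682 and 65.7 TPM. The same lungs, WT replicate 1 and KO replicate 5, stood above the others as in the 38 genes. Since both interferon pathways raise many genes in common, these values do not separate a response to type I interferon from a response to interferon gamma.

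Summed neutrophil and monocyte markers went with the module level over the 12 lungs, with Spearman rank correlations of 0.78 and 0.83, computed after seeing the data. The same 5 lungs, WT replicates 2, 4, 5 and 6 and KO replicate 2, were lowest in both sums and in the module level. For the other cell types the correlations were between -0.46 (B cells) and 0.52 (T cells). Of 6 neutrophil markers (S100a8, S100a9, Retnlg, Csf3r, Cxcr2 and Ly6g), all 6 were higher in KO lungs, with S100a9 the most abundant and none at 0 in any lung. Their summed level was 2457, 444, 1085, 927, 272 and 543 TPM in WT replicates 1 to 6. It was 1257, 1035, 4369, 1972, 7438 and 4925 TPM in KO replicates 1 to 6. As with the interferon genes, WT replicate 1 and KO replicate 5 were the highest of their genotypes, while KO replicates 3, 5 and 6 were all above WT replicate 1. The 6 log2 fold changes lay between 1.27 and 2.09, all 6 had an unadjusted p of at most 0.05 (6.83% of all genes tested), and 0 were called in limma over all 12 lungs, against 5 of 6 without WT replicate 1 (2.30% of all genes).

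Of 6 monocyte markers (Ly6c2, Ccr2, Plac8, F13a1, Chil3 and Fn1), all 6 were higher in KO lungs, with Ly6c2 the most abundant and none at 0. They summed to 2480.0, 471, 829.7, 315, 136 and 335 TPM in WT replicates 1 to 6. The sums in KO replicates 1 to 6 were 1038, 472, 3328, 1216, 3761 and 2069 TPM. Again WT replicate 1 and KO replicate 5 were highest in their genotypes, with KO replicates 3 and 5 above WT replicate 1. By limma 0 of the 6 were called over all 12 lungs and 2 without WT replicate 1 (2.30% of all genes tested). At an unadjusted p of at most 0.05 there were 5 over all 12 lungs (6.83% of all genes) and 6 without that lung (17.9%). Of 6 endothelial markers, all 6 were lower in KO lungs and 0 were called in limma, with Egfl7 the most abundant. They summed to 1846, 2292, 3544, 3446, 3454 and 4226 TPM in WT replicates 1 to 6, the lowest being replicate 1. The sums in KO replicates 1 to 6 were 2321, 3649, 1928, 2524, 2397 and 2352 TPM. Among 6 markers each, 4 of alveolar macrophages, 3 of T cells and 6 of NK cells had a higher mean log2(TPM + 1) in KO lungs. So did 4 of alveolar epithelium and 3 of fibroblasts (2 by mean TPM). By limma 0 of these markers were called over all 12 lungs. Without WT replicate 1, 1 alveolar macrophage marker was called, beside 2.30% of all genes tested called as higher. The part of cell content in the levels of the interferon genes was not tested.

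Plasmacytoid dendritic cells, a main source of interferon alpha, left little trace. Of their 6 markers (Siglech, Ccr9, Klk1, Cox6a2, Pacsin1 and Tcf4), 3 had a higher mean TPM in KO lungs. Siglech, their defining lectin, was at 0.26, 0.66 and 4.71 TPM in WT lungs and 0.24, 1.56 and 3.39 TPM in KO lungs (log2 fold change 0.08, limma adjusted p = 0.944). Its mean TPM was slightly lower in KO lungs, 1.53 against 1.66, unlike its mean log2(TPM + 1). The summed level was 76.5, 98.1, 62.8, 99.99, 88.7 and 47.03 TPM in WT replicates 1 to 6 and 69.8, 46.4, 79.3, 63.99, 73.5 and 61 TPM in KO replicates 1 to 6, most of it Tcf4 and Cox6a2, which other cells also express.

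A sequence known from interferon-stimulated genes was also searched for near the starts of the 38 genes. Promoter windows of RefSeq on the build GRCm38.p6, from 250 bases before to 50 bases after the start, were matched by symbol for 29 of the 38 genes. They were searched on both strands for the core of the interferon-stimulated response element, spelled GAAANNGAAA, in which N is any base. A match was found in 16 of the 29 genes (55.2%), beside 3.99% of the 27025 symbols with a window. For 12 genes a match lay before the start, in Ifit1, Ifit3, Ifit3b, Isg15, Oas1a, Oas1g, Oas3, Ddx60, Stat2, Bst2, Rsad2 and Trim30a. For Ifih1, Ddx58, Eif2ak2 and Ifitm3 it lay after the start. A match is a description of the letters and does not show that a factor binds there.

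Stretches with a match before the start are shown for genes described in full above, 5′ to 3′ on the strand of the gene, with the matches in capitals. A match on the opposite strand reads as its reverse complement. Isg15 had 3 overlapping matches, the first of which starts 78 bases before the gene's start, shown in the 120 bases before the start (chr4:156200819-156200938, minus strand).
Isg15: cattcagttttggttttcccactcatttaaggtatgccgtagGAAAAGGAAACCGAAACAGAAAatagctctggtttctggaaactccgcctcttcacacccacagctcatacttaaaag
In Oas1a (chr5:120907526-120907555, minus strand) and Oas1g (chr5:120887614-120887641, minus strand), the first of a pair of overlapping matches starts 20 bases before the start in Oas1a and 18 bases before it in Oas1g, within a run of 73 bases that the windows of both genes share letter for letter.
Oas1a: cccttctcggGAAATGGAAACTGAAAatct
Oas1g: cccttctcggGAAATGGAAACTGAAAat
Ifit3 (chr19:34583363-34583426, plus strand) and Ifit3b (chr19:34607759-34607822, plus strand) each had 2 matches on the opposite strand, 34 bases apart, within a shared run of 169 bases.
Ifit3: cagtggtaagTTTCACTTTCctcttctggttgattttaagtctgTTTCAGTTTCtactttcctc
Ifit3b: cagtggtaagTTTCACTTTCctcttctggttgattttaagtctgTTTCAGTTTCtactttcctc
Oas3 (chr5:120777715-120777744, minus strand) had 1 match on its own strand and Rsad2 (chr12:26456553-26456582, minus strand) 1 match on the opposite strand, 75 and 120 bases before their starts.
Oas3: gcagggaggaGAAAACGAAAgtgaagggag
Rsad2: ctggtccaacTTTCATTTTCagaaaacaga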

How the data were processed

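Total RNA of 12 lungs was sequenced, 6 per genotype. The authors deposited TPM per gene in 1 table with 1 column per library. Their processing notes name fastp, HISAT, RSEM and the build GRCm38.p5, and give no versions. Depth cannot be read from TPM, so the reads behind a value are unknown. The p-values set the difference between genotypes against the spread between these lungs.

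Genes that reached 1 TPM in 6 or more libraries were compared by genotype alone, on log2(TPM + 1), in R 4.3.3 by limma 3.58.1 with a mean-variance trend. No library was left unused. The step was tested on simulated data. Exact permutation tests, counts and sequence searches used Python 3.11.15, NumPy 2.4.6, pandas 2.3.3 and matplotlib 3.10.9. Coordinates come from GENCODE M21 on GRCm38, which held all 38 genes by ID.

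The genes and the lists of related genes and markers were chosen with earlier results of these data known. Genes described in full were, in each of 7 role groups, the one with the highest mean TPM and the one with the largest log2 fold change, every gene with a p of at most 0.05, and 2 pairs of near copies. From each related list the 3 tested genes with the smallest p were named, with Il10, Cd79a, Ifnb1, Ifng, Ifnar1, Ifnar2 and Irf3. In the list of B cell markers and in that of receptors and JAK-STAT genes, 1 planned gene each was not used here. Other names were chosen after their values were seen.

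As alternatives, the pseudocount was set to 0.1, the filter was dropped or replaced by a mean TPM of 5 or more, immunoglobulin genes were removed before rescaling, and quantile normalization, centring on medians, array weights, the replicate number as a block, no minimum fold change, and leaving out each library in turn were used. Rescaling without mitochondrial genes and leaving out IL-10 B-KO replicates 2 and 6 were added after seeing the data.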

Additional observations from a re-analysis of the deposited data

Results flagged for a closer look

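Among 132 groups of 6 lungs examined on the log2 scale, 4 had a highest or lowest lung whose gap to the nearest of the others took up an unusually large part of the group's range. Chance does this in about 1 in 20 independent groups. The 132 groups share the same lungs and hold related genes, so that the count of 4 cannot be judged against that rate. For Ifitm3, IL-10 B-KO replicate 5 at 2838 TPM was separated from the other IL-10 B-KO lungs by 0.64 of the range. For Ifnar2, IL-10 B-KO replicate 2 at 76.2 TPM lay below the others by 0.63 of the range. For Cd79a, IL-10 B-WT replicate 2 at 258.6 TPM lay above the others by 0.834 of the range, and for the summed B cell markers the same lung did so by 0.79.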

How the results depend on the processing

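Most of the 13 genes described in full were picked for a large difference or a small p in these data. Outside them, Isg20, Ifi35, Mx2 and Trim30a were not higher in IL-10 B-KO lungs under some alternatives. The direction of the 13 genes was positive in all 286 combinations of gene and alternative, and 281 kept their side of the threshold. The other 5 were Oas1a, Oas1g, Oas2, Oas3 and Zbp1 without IL-10 B-WT replicate 1, so that 5 of the 38 genes were called there and 0 under each other alternative. Across the 12 analyses without one lung each, this count ran from 0 to 5, genes with an unadjusted p of at most 0.05 from 0 to 30 (4 over all lungs), the genes called among all tested from 15 to 576 (75 over all lungs), the genes higher in IL-10 B-KO lungs from 36 to 38, the median log2 fold change from 0.45 to 0.92 and the difference in module level from 0.51 to 1.08. With no filter 6 genes were called among all tested, 39 with quantile normalization, 36 with median centring, 318 with array weights and 42 without IL-10 B-KO replicates 2 and 6. Of the 38 genes, 2 had an unadjusted p of at most 0.05 without immunoglobulin genes (4.85% of all genes tested were higher at that p), 14 with array weights (11.1%) and 10 without IL-10 B-KO replicates 2 and 6 (9.22%). The cause was not tested. With the replicate number as a block, 45 genes were called among all tested and 7 of the 38 had an unadjusted p of at most 0.05 (5.19% of all genes). Over all genes tested, lungs that share a number did not deviate together (correlations from -0.292 to 0.0458). A smaller effect shared by lungs of the same number is not excluded by these correlations. Depth is unknown from TPM, which limits what low values such as those of Ifnb1 can show.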
